A study of Homo sapiens with 6 samples.

Results

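Cancer-testis antigen genes were compared between K562 cells that carried different SUMO mutants of the transcription factor MYB. The set was a list of 36 symbols of the MAGE, PAGE, SSX, SPANX, XAGE and CTAG families and of further testis-restricted genes. Its genes were listed by name, but with earlier results of these data known, so the list is not independent of the data. The expression table held 35 of them among its 58288 gene IDs, the exception being CT45A1, and 22 had a mean level of 1 FPKM or more across the 6 libraries, which was asked for before a test (FPKM counts fragments per length of transcript and per depth of library, so that levels of different genes can be compared). The 13 others were below that level, and 2 of these, SPANXC and CTAG1B, were listed at 0 in every library.

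Cancer-testis antigens are proteins normally made in the germ cells of the testis and switched off in other adult tissues, largely through DNA methylation of their promoters. Many tumors and tumor cell lines express them again, and since germ cells do not present antigens, T cells can recognise the proteins as foreign, which has made them vaccine and T-cell targets. Most belong to families that multiplied on the X chromosome. On it lay 31 of the 35 measured genes and 20 of the 22 tested, while PRAME is on chromosome 22, CTCFL on chromosome 20, DDX43 on chromosome 6 and BRDT on chromosome 1.

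K562 is a human erythroleukemic cell line. All 6 libraries came from single cell clones of it that stably expressed a mutant MYB with 3xFLAG and HA tags, were grown with G418 at 200 µg/ml, and were transfected with siRNA against endogenous MYB (siU2992) 24 h before RNA was taken. In 3 libraries the clone expressed 2KR-MYB, whose SUMO-acceptor lysines are replaced by arginine so that SUMO is not conjugated, and in 3 it expressed ANAA-MYB, whose SUMO-interaction motif is mutated so that SUMO is not bound. Each mutant was represented by 1 clone, so a difference between the mutants and a difference between the clones cannot be told apart. The replicates were described as biological, with no statement that they were separate cultures of more than 1 clone, and p-values measure only the spread between these libraries.

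MYB, the target of the siRNA, had levels of 68.95, 61.15 and 67.52 FPKM with 2KR-MYB and of 53.62, 55.32 and 62.04 FPKM with ANAA-MYB. The libraries of the rescues overlapped, and the difference missed the threshold (log2 difference 0.21, SE 0.07, limma adjusted p = 0.062). FPKM per gene does not separate the endogenous from the introduced MYB. Summed over all genes, FPKM ranged from 579920 to 601877 per library with 2KR-MYB and from 583555 to 633662 with ANAA-MYB, and the number of reads behind a value is unknown. All 12 erythroid markers listed for K562 were tested and together made 1849 to 1980 FPKM with 2KR-MYB and 2089 to 2505 FPKM with ANAA-MYB. Of 10 markers of spermatogenic cells, among them PRM1 and DDX4, every one was under 1 FPKM in every library and 4 were at 0, with sums of 0.284 to 0.433 FPKM against 0.395 to 0.590. Of 10 lymphoid, stromal and epithelial markers 5 were under 1 FPKM in every library. Their sum was 79.0 to 86.3 FPKM with 2KR-MYB and 93.5 to 114 FPKM with ANAA-MYB (CD3D alone 27.8 and 52.9 FPKM on average, CD3E at most 0.531). Of the 5 that were tested in limma at an adjusted p under 0.01, 2 were higher with ANAA-MYB, 1 was higher with 2KR-MYB and 2 did not pass. The part of these marker levels in the results was not tested.

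The stretches of 250 bases before the annotated start are shown for genes that differed strongly between the rescues in either direction. For contrast, that of MAGEA3, which was high in both rescues, is also shown. They are RefSeq sequences of GRCh38.p14, written 5′ to 3′ on the strand of the gene, with each CG dinucleotide, the site of DNA methylation, in capitals. The PAGE5 window is chrX:55220096-55220345 (plus strand), that of PASD1 chrX:151563425-151563674 (plus), that of SSX1 chrX:48255142-48255391 (plus), that of DDX53 chrX:22999710-22999959 (plus), that of SPANXD chrX:141698740-141698989 (minus) and that of MAGEA3 chrX:152698544-152698793 (plus).
PAGE5: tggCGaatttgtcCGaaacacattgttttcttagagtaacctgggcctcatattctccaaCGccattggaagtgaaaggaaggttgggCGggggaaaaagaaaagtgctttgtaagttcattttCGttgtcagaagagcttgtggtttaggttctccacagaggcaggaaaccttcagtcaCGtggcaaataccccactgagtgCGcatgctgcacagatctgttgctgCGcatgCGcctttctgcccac
PASD1: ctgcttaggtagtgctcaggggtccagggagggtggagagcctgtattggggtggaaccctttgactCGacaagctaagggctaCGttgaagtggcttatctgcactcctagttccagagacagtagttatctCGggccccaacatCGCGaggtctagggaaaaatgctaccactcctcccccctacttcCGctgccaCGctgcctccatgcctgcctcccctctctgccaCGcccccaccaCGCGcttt
SSX1: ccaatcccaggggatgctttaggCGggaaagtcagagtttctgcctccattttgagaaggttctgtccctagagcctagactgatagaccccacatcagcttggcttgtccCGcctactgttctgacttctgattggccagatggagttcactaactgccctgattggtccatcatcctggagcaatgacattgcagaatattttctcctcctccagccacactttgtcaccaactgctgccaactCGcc
DDX53: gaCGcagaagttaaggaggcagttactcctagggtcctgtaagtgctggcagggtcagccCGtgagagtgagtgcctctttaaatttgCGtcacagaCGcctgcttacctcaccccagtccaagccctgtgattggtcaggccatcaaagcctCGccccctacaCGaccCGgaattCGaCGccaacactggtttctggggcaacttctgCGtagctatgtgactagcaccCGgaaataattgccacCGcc
SPANXD: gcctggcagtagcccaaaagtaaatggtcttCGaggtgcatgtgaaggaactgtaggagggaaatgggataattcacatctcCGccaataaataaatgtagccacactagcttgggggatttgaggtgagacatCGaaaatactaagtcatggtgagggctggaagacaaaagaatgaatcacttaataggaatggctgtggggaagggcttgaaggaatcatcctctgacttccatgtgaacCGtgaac
MAGEA3: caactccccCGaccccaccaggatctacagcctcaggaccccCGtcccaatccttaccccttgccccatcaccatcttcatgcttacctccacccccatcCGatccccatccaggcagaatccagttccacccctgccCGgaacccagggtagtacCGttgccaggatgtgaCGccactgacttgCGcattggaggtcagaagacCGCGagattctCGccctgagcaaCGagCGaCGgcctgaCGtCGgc

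The PAGE5 window held 9 CG dinucleotides, PASD1 10, SSX1 3, DDX53 12, SPANXD 4 and MAGEA3 15. Windows were found for 30 of the 36 listed genes (not for MAGEA1, SSX3, MAGEA10, MAGEB17, CTAG1B and CTAG2). Their median was 9 CG dinucleotides, with a range from 1 in MAGEB1 to 16 in DDX43, beside a median of 11 over the 27305 promoters of the same length. The hexamer CCGGAA, core of the site of ETS factors, was found on either strand in 5 of the 30 windows (16.7%; DDX53, MAGEA3, MAGEA6, PRAME and CTCFL) and in 14.8% of all promoters. The core of the MYB site, AACNG, was found on either strand in 27 of the 30 windows (90%), those without it being MAGEC1, MAGEC2 and PASD1, and in 70.6% of all promoters. Overlap between matches of these motifs was not removed, and a match describes letters, not binding. The window of MAGEA6, chrX:152769690-152769939 on the minus strand, was identical to that of MAGEA3 at 250 of 250 bases. Both were counted, so the 30 windows are not independent sequences, and the shares with a motif were not tested against those of all promoters.

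K562 cells of both rescues expressed a broad part of the set (plot of levels by library). PRAME, a repressor of retinoic acid receptor signalling and a substrate receptor of a ubiquitin ligase, was the highest at a mean of 1157 FPKM, which was rank 50 among all genes of the table. By the mean over both rescues, a further 13 genes were over 30 FPKM and PAGE1 had 21.0, so that 15 were above 10 FPKM and 7 lay between 1 and 10. Of the 13, PAGE5, MAGEA1 and SSX3 averaged only 4.97, 3.12 and 17.1 FPKM with 2KR-MYB. PASD1 averaged under 1 FPKM with 2KR-MYB, and SPANXD and DDX53 did so with ANAA-MYB. Below the filter, 11 of the 13 genes were under 0.5 FPKM in every library. The genes of the set summed to between 1669 and 1824 FPKM in the 2KR-MYB libraries and between 2272 and 2502 FPKM in the ANAA-MYB libraries. Single genes weigh heavily in these sums. PRAME alone averaged 1101 FPKM with 2KR-MYB and 1214 FPKM with ANAA-MYB, and PAGE5 averaged 4.97 and 213 FPKM. In bulk RNA, fewer cells with a transcript and less transcript per cell cannot be told apart.

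**Figure D1:**
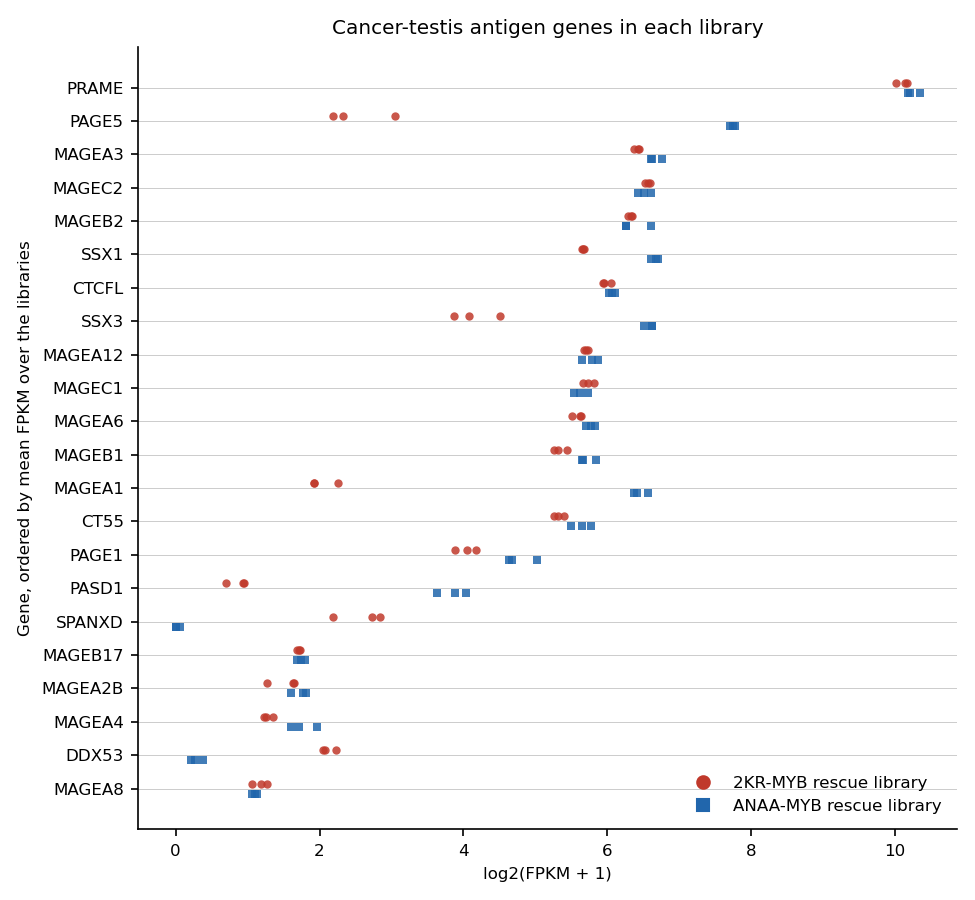
Level of the 22 tested cancer-testis antigen genes in each library, as log2(FPKM + 1) on the horizontal axis, with genes ordered by mean FPKM. Circles are the 3 libraries of the 2KR-MYB rescue and squares the 3 of the ANAA-MYB rescue. PAGE5, MAGEA1, SSX3 and PASD1 lie far to the right with ANAA-MYB, SPANXD and DDX53 with 2KR-MYB, and most other genes lie close together.

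The comparison of the rescues asked whether loss of SUMO conjugation and loss of SUMO binding leave this germline program at the same level. Of the 22 tested genes, 7 were higher with ANAA-MYB, 2 were higher with 2KR-MYB and 13 did not pass (limma on log2(FPKM + 1), Benjamini-Hochberg adjusted p under 0.01 over 12634 genes). Over all tested genes 13.0% passed, 7.42% higher with ANAA-MYB and 5.57% higher with 2KR-MYB. The counts of the set were not tested against these shares. PASD1 averaged 0.826 FPKM with 2KR-MYB, and SPANXD and DDX53 averaged 0.0133 and 0.225 FPKM with ANAA-MYB. These genes reached the filter of 1 FPKM only through the rescue where they were high, so being tested was tied to their difference. The log2 scale with a pseudocount of 1 FPKM understates the change of low genes. The median log2 difference, 2KR-MYB minus ANAA-MYB, was -0.19 for the 22 genes and -0.02 for all tested genes. It was below 0 in 17 of the 22 genes and in 53.2% of all genes. A difference of more than 1 in size was found in 6 of the 22 genes and in 229 of the 12634 (1.81%). PASD1, SPANXD and DDX53, which passed the filter through 1 rescue, are among the 6. The 3 libraries of each rescue lay fully apart in 12 genes with ANAA-MYB above and in 2 with 2KR-MYB above, where 44.9% of all genes lay apart in either direction.

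**Figure D2:**
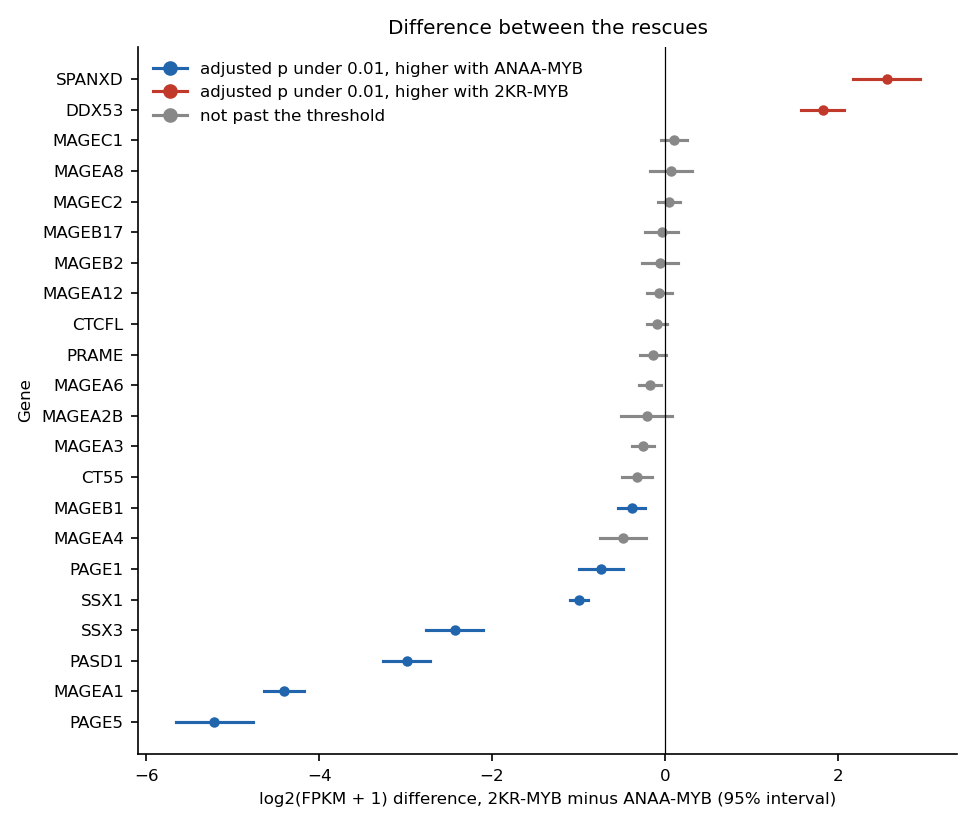
Difference in log2(FPKM + 1), 2KR-MYB minus ANAA-MYB, for each tested cancer-testis antigen gene, with its 95% interval from limma (3 libraries a rescue). The 9 coloured points passed the adjusted threshold. The values run from -5.22 for PAGE5 to 2.57 for SPANXD, and the 13 grey points lie between -0.48 and 0.11.

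The largest difference of the set was in PAGE5, a member of the PAGE branch of the GAGE-like genes on Xp11 whose products are small proteins of little known function. It stood at 3.545, 4.039 and 7.311 FPKM with 2KR-MYB and at 207.2, 217.1 and 213.8 FPKM with ANAA-MYB. All 3 ANAA-MYB libraries were far above all 3 of 2KR-MYB, with means of 4.97 ± 2.05 and 213 ± 5.08 FPKM (SD, n = 3), a ratio of 42.8. The log2 difference was -5.22 (SE 0.19, 95% interval -5.66 to -4.77, limma adjusted p = 4.4e-06). In the order of all genes by level PAGE5 held ranks between 8284 and 10065 in the 2KR-MYB libraries and ranks between 364 and 373 in the ANAA-MYB libraries.

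PAGE1, another member of the branch, had 13.82, 15.52 and 17.05 FPKM with 2KR-MYB and 23.82, 24.63 and 31.38 FPKM with ANAA-MYB. The rescues did not overlap, and the log2 difference was -0.74 (SE 0.11, limma adjusted p = 0.0025). This call was lost without 2KR-MYB replicate 1 (adjusted p = 0.011), without 2KR-MYB replicate 2 (0.012) and with no filter on low values (0.020). PAGE2, whose start lies 131 kb from that of PAGE5, was under the filter at 0.296, 0.135 and 0.146 FPKM against 0.451, 0.667 and 0.187 FPKM. Its libraries overlapped. PAGE2B, a near copy of PAGE2 outside the set, stood at 2.449, 1.819 and 2.452 FPKM with 2KR-MYB and 0.501, 0.853 and 0.222 FPKM with ANAA-MYB, opposite in direction to PAGE5 (log2 difference 1.10, SE 0.17, limma adjusted p = 0.0026). Summed over the 6 PAGE genes of the table the level was 24.4 ± 4.07 FPKM with 2KR-MYB and 241 ± 7.29 FPKM with ANAA-MYB, most of the latter from PAGE5.

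**Figure D3:**
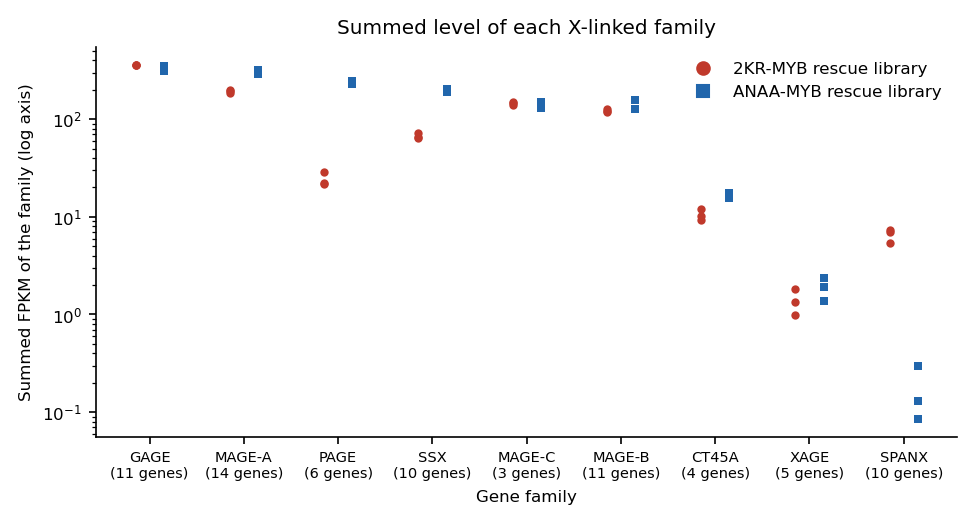
Summed FPKM of each X-linked cancer-testis family in each library on a log axis, over all genes of the family in the table, with circles for the 3 2KR-MYB libraries and squares for the 3 ANAA-MYB libraries. The PAGE sums are about 24.4 and 241 FPKM on average and the SPANX sums 6.59 and 0.172 FPKM, while those of GAGE, MAGE-B and MAGE-C lie close together.

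Among the MAGE-A genes, which encode partners of RING-type ubiquitin ligases, the difference was concentrated in MAGEA1, the founding member of the family. MAGEA1 stood at 2.794, 2.786 and 3.789 FPKM with 2KR-MYB and at 83.95, 81.72 and 93.53 FPKM with ANAA-MYB. The rescues lay far apart with little spread within either, at 3.12 ± 0.58 and 86.4 ± 6.28 FPKM (SD, n = 3), a ratio of 27.7. The log2 difference was -4.41 (SE 0.10, 95% interval -4.64 to -4.18, limma adjusted p = 2.1e-07).

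The other MAGE-A genes of the set differed less, and none passed the threshold. MAGEA3, which binds and redirects the corepressor TRIM28, stood at 81.47, 85.11 and 85.64 FPKM with 2KR-MYB and at 96.14, 97.20 and 107.6 FPKM with ANAA-MYB (log2 difference -0.25, SE 0.055, limma adjusted p = 0.013). MAGEA6, its near copy 67 kb away with the identical upstream window, had 44.73, 48.82 and 48.33 FPKM against 51.06, 53.61 and 55.98 FPKM (log2 difference -0.18, limma adjusted p = 0.048). Both lay fully apart with ANAA-MYB above. MAGEA4 had 1.384, 1.351 and 1.551 FPKM against 2.905, 2.273 and 2.041 FPKM, also without overlap (log2 difference -0.48, limma adjusted p = 0.018).

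MAGEA12 had 51.16, 52.22 and 49.99 FPKM against 54.08, 49.09 and 57.70 FPKM, with overlap (log2 difference -0.07, 95% interval -0.21 to 0.08). MAGEA2B and MAGEA8 were low in all libraries, between 1.088 and 2.506 FPKM, and overlapped. Their log2 differences were -0.21 and 0.07. MAGEA10 was at or under 0.012 FPKM in each 2KR-MYB library and at 0.0382, 0.0594 and 0.0625 FPKM with ANAA-MYB, without overlap (p = 0.1 in the exact two-sided permutation test, the lowest value possible here), and was under the filter for limma. Over the 14 MAGE-A genes of the table the summed level was 194 ± 5.30 FPKM with 2KR-MYB and 302 ± 17.9 FPKM with ANAA-MYB.

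The MAGE-B and MAGE-C genes stood at similar levels in the rescues. MAGEB1 passed the threshold at 37.31, 38.72 and 42.25 FPKM with 2KR-MYB and 49.35, 49.80 and 56.31 FPKM with ANAA-MYB (log2 difference -0.39, SE 0.07, limma adjusted p = 0.0052). This call was lost with no filter on low values (adjusted p = 0.025) and without any of the 5 libraries other than 2KR-MYB replicate 3 (between 0.012 and 0.024). MAGEB2, whose start is 28 kb from that of MAGEB1, had 77.38, 79.19 and 79.87 FPKM against 75.51, 75.87 and 96.81 FPKM, with overlap (log2 difference -0.06, limma adjusted p = 0.67), and the sign turned without ANAA-MYB replicate 3 (0.06). MAGEB17 lay between 2.206 and 2.488 FPKM in all 6 libraries.

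MAGEC1 had 49.76, 52.01 and 55.15 FPKM with 2KR-MYB and 45.24, 48.10 and 52.23 FPKM with ANAA-MYB (log2 difference 0.11, 95% interval -0.04 to 0.26). MAGEC2, which like MAGEA3 binds TRIM28, had 91.14, 95.38 and 93.98 FPKM against 85.17, 89.87 and 96.81 FPKM (log2 difference 0.05, 95% interval -0.08 to 0.17). The libraries overlapped in both genes.

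The SSX genes encode repressors that associate with Polycomb chromatin and are known from the SS18-SSX fusions of synovial sarcoma. SSX3 stood at 13.66, 15.81 and 21.86 FPKM with 2KR-MYB and at 90.15, 97.40 and 97.82 FPKM with ANAA-MYB, a ratio of means of 5.56 (log2 difference -2.43, SE 0.14, limma adjusted p = 3.4e-05). SSX1, whose start is 91 kb away, had 50.21, 49.04 and 49.68 FPKM against 96.17, 103.1 and 101.3 FPKM, a ratio of 2.02 (log2 difference -0.998, SE 0.045, limma adjusted p = 1.2e-05). In both genes every ANAA-MYB library was above every 2KR-MYB library. The genes on either side of this pair were nearly silent. SSX5, with its start 69 kb from that of SSX1, was at most 0.128 FPKM, and SSX4, 37 kb from SSX3, at most 0.021 FPKM. SSX2, farther along the chromosome, lay between 0.179 and 0.335 FPKM with overlap. The 10 SSX genes of the table summed to 67.5 ± 4.04 FPKM with 2KR-MYB and 198 ± 8.49 FPKM with ANAA-MYB.

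PASD1 encodes a PAS domain protein that represses the circadian CLOCK-BMAL1 factor. It stood at 0.625, 0.920 and 0.932 FPKM with 2KR-MYB and at 13.81, 15.35 and 11.46 FPKM with ANAA-MYB, fully apart and with a ratio of means of 16.4. The log2 difference was -2.99 (SE 0.12, 95% interval -3.26 to -2.72, limma adjusted p = 6.9e-06). With smaller pseudocounts than 1 the log2 difference reached -4.03.

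The SPANX genes, which encode sperm nuclear proteins of recent primate origin, went the other way. SPANXD stood at 5.625, 6.132 and 3.562 FPKM with 2KR-MYB and at 0.040 FPKM in ANAA-MYB replicate 1, and was listed at 0 in ANAA-MYB replicates 2 and 3. It was the only gene of the set with a mean of at least 1 FPKM in one rescue and every library of the other under 0.1 FPKM. The log2 difference was 2.57 (SE 0.17, limma adjusted p = 5.9e-05), a size that depends on the pseudocount since the ANAA-MYB values are at or near 0, and that ran from 2.44 to 8.19 over the alternatives. SPANXB1 was under the filter with 1.182, 1.114 and 1.776 FPKM against 0.091, 0.300 and 0.085 FPKM, also without overlap (p = 0.1 in an exact two-sided permutation test, the lowest value possible for 3 libraries against 3). When the filter was lowered to a mean of 0.1 FPKM its log2 difference was 1.02 (SE 0.13, limma adjusted p = 0.0024). SPANXC was listed at 0. The SPANX genes of the table summed to 7.025, 7.362 and 5.381 FPKM with 2KR-MYB and to 0.130, 0.300 and 0.085 FPKM with ANAA-MYB.

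DDX53, an intronless gene for a DEAD-box RNA helicase, was the other gene higher with 2KR-MYB, at 3.124, 3.209 and 3.696 FPKM against 0.308, 0.203 and 0.163 FPKM. The rescues did not overlap, the ratio of means was 14.9, and the log2 difference was 1.83 (SE 0.11, 95% interval 1.58 to 2.07, limma adjusted p = 3.5e-05). DDX53 lies inside the annotated span of the long noncoding RNA PTCHD1-AS.

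The remaining genes of the set differed little. PRAME had 1036, 1121 and 1146 FPKM with 2KR-MYB and 1182, 1161 and 1298 FPKM with ANAA-MYB, just apart (log2 difference -0.14, SE 0.07, limma adjusted p = 0.16). CTCFL, the germline paralog of the insulator protein CTCF and an activator of cancer-testis genes in some cells, had 60.15, 60.87 and 65.21 FPKM against 64.21, 66.14 and 68.17 FPKM, with overlap (log2 difference -0.09, 95% interval -0.21 to 0.02). CT55 had 37.12, 38.68 and 41.18 FPKM against 44.15, 49.18 and 53.58 FPKM, apart but short of the threshold (log2 difference -0.32, limma adjusted p = 0.017). The antigens CTAG1B (NY-ESO-1) and CTAG2 (LAGE-1) were at 0 and at no more than 0.258 FPKM. The helicase DDX43 reached 0.145 FPKM and the bromodomain protein BRDT 0.025 FPKM. XAGE2 and XAGE5 were each above 0 in a lone ANAA-MYB library, at 0.0464 and 0.123 FPKM.

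Several of these genes have near copies among which short reads could be shared. Transcript stretches of 150 bases, the read length, were compared by exact match with the transcripts of all other genes. None of the stretches of PAGE5, MAGEA1, SSX1, SSX3, SPANXD, SPANXB1, DDX53, PAGE1, MAGEB1 or PRAME was found in another gene, and 3.7% of those of PASD1 were. Sharing was high for SSX2 (93%, with SSX2B), SSX4 (99.7%, with SSX4B), MAGEA2B (74.1%, with MAGEA2), MAGEA6 (39.1%, with MAGEA3), MAGEA3 (32.9%, with MAGEA6) and CTAG1B (100%, with CTAG1A), so the values of these single genes are uncertain. The sum of MAGEA3 and MAGEA6 had a log2 difference of -0.23 (limma adjusted p = 0.018). MAGEB1, MAGEA8, MAGEA10, MAGEA12, MAGEB17, MAGEC2, PRAME, DDX43 and DDX53 also overlap another annotated gene, pseudogene or locus. The strand setting of the counting is not given in the sources used here.

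Genes beside the members differed far less (plot around MAGEA1). Within 500 kb of a tested member lay 64 tested genes that are not cancer-testis genes, of which 15 were higher with ANAA-MYB and 2 with 2KR-MYB (26.6% called, beside 13.0% of all tested genes). Their median log2 difference was -0.10, it was below 0 in 68.8% of them, and only GABRQ, a GABA receptor subunit, exceeded 1 in size, at 0.997 FPKM with 2KR-MYB and 3.60 FPKM with ANAA-MYB (-1.20, limma adjusted p = 0.00011). PNMA3 and PNMA6A, paraneoplastic antigen genes close to MAGEA1, were the other neighbours of MAGE-A genes among the 5 with the largest differences, at 0.968 FPKM with 2KR-MYB and 2.47 FPKM with ANAA-MYB (-0.82, adjusted p = 0.0011) and 1.10 FPKM with 2KR-MYB and 2.38 FPKM with ANAA-MYB (-0.69, adjusted p = 0.002). The remaining members of those 5 were SYP (synaptophysin), at 4.29 FPKM with 2KR-MYB and 2.03 FPKM with ANAA-MYB (0.79, adjusted p = 0.002) and thus higher with 2KR-MYB, and WAS, the actin regulator of blood cells, at 1.09 FPKM with 2KR-MYB and 2.26 FPKM with ANAA-MYB (-0.65, adjusted p = 0.0084). Around MAGEA1 the 10 neighbours ran from -0.82 to 0.27, with a median of -0.25 against -4.41 for MAGEA1 itself, and 5 of them were higher with ANAA-MYB. Around PAGE5 the 6 neighbours ran from -0.26 to 0.37 and none passed. Around SSX3 the 13 neighbours ran from -0.65 to 0.16, and 4 of them were higher with ANAA-MYB. The 3 neighbours of PASD1 had a median of -0.28, and 2 of them were higher with ANAA-MYB. In neither group was a neighbour called higher with 2KR-MYB. For MAGEA3, MAGEA6, MAGEA2B and MAGEA12 the order was the opposite, since their 6 shared neighbours had a median of -0.63 and the genes themselves lay between -0.25 and -0.07. SPANXD, DDX53, MAGEC1 and MAGEC2 had no tested neighbour within that distance. On the X chromosome as a whole, 389 tested genes outside the set had a median of -0.07, 55 of them higher with ANAA-MYB and 21 higher with 2KR-MYB (19.5% called), and 8 (2.06%) exceeded 1 in size.

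Cancer-testis genes of the X chromosome outside the set were counted in the same way. Of 102 listed, 86 were matched, 34 were at 0 in all libraries and 11 were tested. CT45A10 was higher with ANAA-MYB, at 9.356, 12.03 and 10.12 FPKM against 15.71, 17.65 and 16.12 FPKM (log2 difference -0.61, limma adjusted p = 0.0024), and so was VCX3A, at 6.928, 6.135 and 7.798 FPKM against 10.19, 11.02 and 14.30 FPKM (-0.68, 0.0059). With 2KR-MYB, PAGE2B was higher, as given above, and so was MAGEA9B, at 2.050, 2.725 and 3.713 FPKM against 1.130, 0.982 and 0.786 FPKM (log2 difference 0.94, limma adjusted p = 0.0044). The symbol MAGEA9B was carried by a further gene ID that stayed at or under 0.103 FPKM. The 7 others did not pass, and the median of the 11 was -0.10. CT45A7, CT45A8 and CT45A9 were listed at 0 in every library, and 75.4% of the stretches of their relative CT45A1 occurred in other genes. Sharing was not measured for CT45A10 and MAGEA9B, so their single values are uncertain. The GAGE genes, the most abundant family of all in the 2KR-MYB libraries after PRAME, summed to 359 ± 3.34 FPKM with 2KR-MYB and 327 ± 21.3 FPKM with ANAA-MYB over 11 genes that are near copies of each other. The plot of differences by gene list sets the 22 genes beside these and other lists.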

How the data were processed

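Strand-specific poly(A) RNA libraries of the 2KR-MYB and ANAA-MYB rescues were read as 150 bp pairs. Per the submitters' processing notes, the authors used bcl2fastq 2.18.0.12, Trimmomatic 0.36, TopHat2 2.1.1, Cufflinks, Cuffdiff 2.2.1 and GRCh38, and they deposited an FPKM value for each gene in each library. Which annotation and which scaling between libraries they used is not given in the sources used here. The depth cannot be had from the values, since at most 7.398% of ratios between values under 0.5 FPKM lay within 1% of a common ratio, so no reads were recovered. The table held 12 other columns of per-sample values, which were not used. No 2 libraries held identical values.

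Symbols were matched for 55854 of 58288 gene IDs. The two-sided test of genes whose mean reached 1 FPKM used limma 3.58.1 (R 4.3.3; empirical Bayes with trend) on log2(FPKM + 1), and calls were made at an adjusted p (Benjamini-Hochberg) under 0.01, the limit the study used. Genes under the filter were compared by an exact permutation test. Positions and the 250 bases before each start came from RefSeq GRCh38.p14 by symbol, and 11541 of 12634 tested genes had a position. Stretches shared between genes came from GENCODE transcripts without coordinates. The fit was tested on simulated data. Figures were drawn in Python 3.11.15 with matplotlib 3.10.9.

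The genes of the set and all other lists were chosen with earlier results of these data known. Every gene of the set is named, with MYB, at most 5 called genes of each other list and the 5 neighbours with the largest differences. The other genes named are markers, near copies and genes of families, chosen after their values were seen. The alternatives were smaller pseudocounts, other filters, quantile normalization or upper quartile scaling, the replicate number as a block, a robust prior of the variance, leaving out each library, sums over near copies and a threshold of 0.05. Some members of the marker and antigen presentation lists are not reported here.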

Additional observations from a re-analysis of the deposited data

How the results depend on the processing

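Of the 9 cancer-testis antigen genes past the threshold, 7 kept their direction and their call in every alternative that tested them, and MAGEB1 and PAGE1 lost the call where stated above. Over 351 values of single genes under the alternatives 335 stayed on the same side of the threshold with the same sign, 9 lost and 6 gained the call, and 1 turned its sign (MAGEB2, from -0.12 without ANAA-MYB replicate 1 to 0.058 without ANAA-MYB replicate 3, limma adjusted p = 0.37 for the latter). The count higher with ANAA-MYB, 7 as reported, was 11 at a threshold of 0.05, through MAGEA3, MAGEA4, MAGEA6 and CT55, and 5 to 7 with a library left out. The count higher with 2KR-MYB, 2 as reported, was 0 with a mean of at least 5 FPKM, where SPANXD and DDX53 were no longer tested, and 3 with a mean of at least 0.1 FPKM. The median log2 difference of the set ran from -0.28 with a mean of at least 5 FPKM to -0.06 with no filter on low values, and was -0.16 after upper quartile scaling or quantile normalization. Over all genes the count of 1642 became 942 with no filter on low values, 3402 at a threshold of 0.05 and 831 to 1139 with a library left out. With the replicate number as a block (replicate block) it was 1089, with 8 genes of the set higher with ANAA-MYB, CT55 being added (limma adjusted p = 0.008), and 2 higher with 2KR-MYB. The deviations of libraries with the same number from the mean of their rescue correlated between -0.0523 and -0.00258. These values gave no sign of a pairing by number, but with 3 libraries a rescue they cannot exclude shared handling. The sum of PAGE2, PAGE2B and PAGE5 gave a log2 difference of -4.71 and that of the SPANX genes 2.69. Arms left with 2 libraries after one was left out share the spread estimated over both rescues. Values near 0 FPKM hold few reads, and where both rescues were near 0 a missing call does not show equal levels.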

Other observations

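Testis genes of the autosomes were mixed in direction. Of 41 listed, 40 were matched and 9 were tested. SPAG6, a part of the sperm flagellum, was higher with 2KR-MYB at 13.49, 13.66 and 13.94 FPKM against 6.710, 6.299 and 5.001 FPKM (log2 difference 1.08, limma adjusted p = 0.00022), and so was SPA17, a sperm surface protein (0.52, adjusted p = 0.0016). TEX15, which acts in transposon silencing in germ cells (-0.64, adjusted p = 0.00088), the phosphatase-like TPTE (-0.67, 0.004) and MEIOB, a meiotic recombination factor (-0.33, 0.0059), were higher with ANAA-MYB. Among the 11 MAGE genes that somatic tissues also express, 6 were tested. NDN (necdin), an imprinted gene, had 2.827, 2.620 and 2.434 FPKM with 2KR-MYB and 0.141, 0.077 and 0.136 FPKM with ANAA-MYB (log2 difference 1.70, limma adjusted p = 4.7e-05), while MAGED1 was higher with ANAA-MYB (-0.45, adjusted p = 0.0026).

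Of 30 tested genes for chromatin repressors of germline genes, 25 did not pass. EZH2, the Polycomb methyltransferase, had 68.10, 76.96 and 71.82 FPKM with 2KR-MYB and 48.66, 53.55 and 49.85 FPKM with ANAA-MYB (log2 difference 0.50, limma adjusted p = 0.00084), and the demethylase KDM5B was also higher with 2KR-MYB (0.26, adjusted p = 0.0055). UHRF1, which brings DNMT1 to replicated DNA, had 26.61, 28.86 and 28.57 FPKM against 38.86, 39.61 and 41.91 FPKM (-0.50, adjusted p = 0.0005). E2F6 (-0.31, 0.0059) and HDAC3 (-0.25, 0.0065) were also higher with ANAA-MYB. DNMT1 itself did not pass (-0.12, limma adjusted p = 0.11). Of 11 tested genes for DNA demethylation and activators 0 passed in limma (4 at an unadjusted p under 0.05), and of 10 tested partners of cancer-testis proteins 0 passed (3 at an unadjusted p under 0.05).

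In antigen presentation, 11 of 17 genes were tested. B2M, the light chain of class I molecules, stood at 922.5, 901.2 and 918.8 FPKM with 2KR-MYB and at 1153, 1264 and 1067 FPKM with ANAA-MYB (log2 difference -0.34, limma adjusted p = 0.0085). TAPBP (-0.43, adjusted p = 0.0012) and the immunoproteasome subunit PSMB8 (-0.69, 0.0042) were higher with ANAA-MYB. The peptide transporter TAP1 (0.55, 0.0031) and the subunit PSMB9 (0.50, 0.008) were higher with 2KR-MYB. Of the 12 erythroid markers, GATA1 (-0.46, limma adjusted p = 0.0005), KLF1 (-0.65, 0.00033) and TFRC (-0.29, 0.0078) were higher with ANAA-MYB. A further 1 was higher with 2KR-MYB, and 8 did not pass.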
